A study of Mus musculus with 2 samples.

Results

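The melanocyte lineage and pigment genes Dct, Tyr, Tyrp1, Pmel, Mlana, Gpnmb, Mitf, Sox10, Kit and Ednrb were followed across the cells of the mouse stria vascularis (SV), and all 10 were among the 27040 genes that both count matrices list under the same Ensembl identifier. Each matrix came from 1 single-cell library of SV tissue pooled from 20 cochleae of 10 mice aged 1 to 3 months. One line was Tie2-GFP, a transgene with GFP under the Tek promoter, active in endothelium, and the other NG2-DsRed, with DsRed under that of Cspg4, a proteoglycan gene of pericytes. The labels name no treatment and no strain background for these mice. The animals of a line were pooled before loading, so there is 1 library for each line, and differences between lines cannot be told apart from differences between preparations. The Tie2-GFP and NG2-DsRed matrices were also written by software versions 7.0.0 and 3.0.0 and list 32285 and 27998 genes. Differences between lines cannot be told apart from this either.

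The SV is a three-layered epithelium of the cochlear lateral wall. Its marginal cells face the endolymph, its basal cells close it off from the spiral ligament, and its intermediate cells, which descend from the neural crest and contain melanin, lie between them around a dense capillary bed. In melanocytes tyrosinase (Tyr) starts melanin synthesis from tyrosine, dopachrome tautomerase (Dct) and tyrosinase-related protein 1 (Tyrp1) act on later intermediates, Pmel builds the fibrils on which pigment is laid down, and Mlana is a small melanosomal membrane protein. Gpnmb is a related membrane glycoprotein of melanosomes and lysosomes. Mitf is the master transcription factor of the lineage and Sox10 a neural crest factor that acts upstream of it, while Kit and Ednrb are the receptors for stem cell factor and for endothelins that melanoblasts need to migrate and survive.

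Barcodes were called pigment-marked when Dct, Tyr and the intermediate-cell potassium channel gene Kcnj10 each had at least 1 unique molecular identifier (UMI), endothelial (EC) when at least 4 of Pecam1, Cdh5, Cldn5, Flt1, Egfl7 and Ramp2 had one, and mural when at least 3 of Pdgfrb, Rgs5, Vtn and Notch3 and at most 1 of the endothelial genes had one. Dct and Tyr therefore chose the pigment-marked barcodes, and their presence there is no result. No limit was set on mitochondrial UMIs. The Tie2-GFP library (633 barcodes, 5432289 UMIs) held 87 pigment-marked, 379 EC and 4 mural barcodes, and 163 met no rule. The NG2-DsRed library (201 barcodes, 1232599 UMIs) held 23 pigment-marked, 58 EC and 97 mural barcodes, 2 that were both pigment-marked and EC and were set apart, and 21 that met no rule. The libraries shared 0 barcode sequences. The median depth of pigment-marked, EC and mural barcodes was 10383, 9146 and 3027 UMIs with NG2-DsRed, and that of pigment-marked and EC barcodes 15955 and 7431 UMIs with Tie2-GFP. Mitochondrial UMIs exceeded 5% in 79 of the 87 and in 16 of the 23 pigment-marked barcodes.

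Markers outside the rules were checked in each class. The 6 further endothelial genes Tek, Kdr, Tie1, Ptprb, Emcn and Esam summed to 2756 CPM (the UMIs of a gene per 1000000 UMIs of a class) in ECs and 6.85 CPM in pigment-marked barcodes of the Tie2-GFP library, and Tek had 0 UMIs in the pigment-marked barcodes of both libraries. Ptgds, Met and Kcnj13, markers of intermediate cells, summed to 26920 and 31728 CPM in pigment-marked barcodes of the Tie2-GFP and NG2-DsRed libraries. Most of this sum is Ptgds, with 33741 of the 35374 and 7562 of the 7772 UMIs. Met had 1468 and 206 of them, and Kcnj13 had 165 in the Tie2-GFP library. The NG2-DsRed mural barcodes also held 4892 CPM of these 3 genes, above the 4375 CPM of the 6 further mural genes, and 1433 of the 1626 UMIs were Ptgds in 1 barcode. They held 611 CPM of the endothelial list as well, from 4 of its 6 genes, with Tek and Kdr at 0 UMIs. Tie2-GFP ECs held 2669 CPM of the erythroid genes Hba-a1 and Hbb-bs. All 6 macrophage genes and all 4 mast cell genes were at 0 UMIs in pigment-marked barcodes, and the mast cell genes were also at 0 in every vascular class. The marginal cell genes Kcnq1, Kcne1 and Esrrb summed to 121 UMIs in the pigment-marked barcodes of the Tie2-GFP library and 0 in the others, and the part of such RNA in the results was not tested. Many ECs of the NG2-DsRed library carried mural RNA. Of the 58, 32 had 3 or 4 of the mural genes and 16 had at most 1, whereas 347 of the 379 ECs of the Tie2-GFP library had at most 1.

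The promoters of the 3 enzyme genes are shown because they share a short motif. Dct and Tyr occur together in the pigment-marked barcodes by the class rule, and Tyrp1, which the rule did not use, had 0 UMIs there. The 250 bases before each RefSeq transcript start (GRCm38.p6) were searched on both strands for TCATGTG and TCACGTG, which are E-box forms that MITF is known to bind. Windows were given for 7 of the 10 members (10 windows), and 3 of the windows held a match, those of Dct, Tyr and Tyrp1. Among all 32851 windows of this length, 3.25% held TCATGTG, 3.13% held TCACGTG and 6.28% held either. The 30 bases around each match are printed along the strand of the gene, with the match in capitals. The first Dct match lies on the opposite strand.
Dct, chr14:118052460-118052489 (minus strand, match 232 to 226 bases before the start): cttggctgggaCACATGAgcccaataaaga
Dct, chr14:118052379-118052408 (minus strand, match 151 to 145 bases before the start): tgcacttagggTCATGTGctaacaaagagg
Tyr, chr7:87493516-87493545 (minus strand, match 22 to 16 bases before the start): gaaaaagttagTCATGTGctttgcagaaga
Tyrp1, chr4:80834155-80834184 (plus strand, match 47 to 41 bases before the start): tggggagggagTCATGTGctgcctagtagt
None of the windows of Mitf (3 starts), Kit (2 starts), Gpnmb and Ednrb held either motif. The gene coordinates printed below come from GENCODE and not RefSeq. By them the Tyrp1 match and the whole Ednrb window lie inside the gene and not before its start.

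Levels are given as CPM of the UMIs summed over a class, with exact 95% Poisson intervals, and shares of barcodes with exact 95% Clopper-Pearson intervals. Both cover counting error only. For a count of 0, the level or share said to be allowed is that of 3 UMIs or barcodes. It lies below the exact upper bound, as with 0.874 against 1.07 CPM for Tyr in Tie2-GFP ECs. With 1 library for each line no test was possible, and no p-value is given. UMIs were counted near the 3′ end and are not scaled by gene length, so levels are compared between classes within a gene.

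The enzyme genes fell into detected and undetected members. Dct (ENSMUSG00000022129, chr14:118012790-118052244) stood at 29417 CPM (29124 to 29712) in the pigment-marked barcodes of the Tie2-GFP library, where single barcodes ranged from 439 to 95122 CPM around a median of 29324. With NG2-DsRed it stood at 23523 CPM (22919 to 24138), with single barcodes from 2966 to 42183 CPM. Tyr (ENSMUSG00000004651, chr7:87424771-87493512) reached 1036 CPM (981 to 1092) and 935 CPM (818 to 1064). The Tyr intervals of the libraries overlapped and those of Dct did not, a difference that cannot be told apart from the preparation or the software version. Both genes chose the barcodes. Tyrp1 (ENSMUSG00000005994, chr4:80834123-80851719) had 0 UMIs in every class of both libraries. Among 87 and 23 pigment-marked barcodes a count of 0 allows a level of up to 2.28 and 12.2 CPM. The window before its RefSeq start carries the TCATGTG motif as those of Dct and Tyr do.

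In ECs of the Tie2-GFP library Tyr had 0 UMIs in 379 barcodes, which allows up to 0.874 CPM and a share of up to 0.792%. Dct had 60 UMIs there, a level of 17.5 CPM (13.3 to 22.5), and these were spread thinly. They lay in 53 barcodes (14.0%, 10.7 to 17.9), 48 of which had a single UMI, and the highest barcode had 4. The level in pigment-marked barcodes was 1684 times that in ECs (1308 to 2207). Dct helped to choose the pigment-marked barcodes, so this fold is not independent of the rule. In NG2-DsRed barcodes Dct stood at 78.8 CPM (57.5 to 105) in ECs and 87.3 CPM (58.4 to 125) in mural barcodes, and few barcodes held most of it. A pair of mural barcodes held 25 of the 29 mural UMIs, and 2 EC barcodes held 28 of the 45 EC UMIs. Without the barcodes that had 5 or more Dct UMIs (a setting added once the data had been seen) the level was 31.4 CPM in ECs and 12.5 CPM in mural barcodes. Tyr had 1 UMI in the 58 ECs and 0 in the 97 mural barcodes. The 2 barcodes set apart as both pigment-marked and EC, which the rule kept out of the ECs, held 2 Tyr and 12 Dct UMIs. The ratio of EC to mural level for Dct was 0.903 (0.554 to 1.49), an interval that includes 1.

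**Figure D1:**
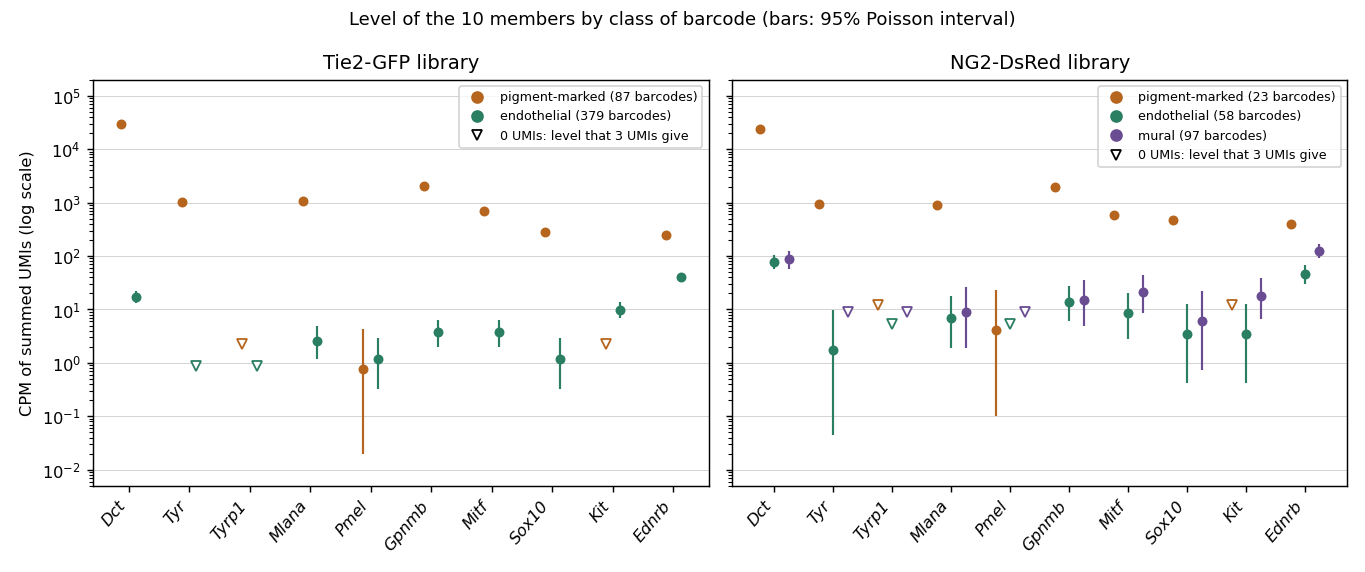
Level of each of the 10 members (x axis) in CPM of summed UMIs on a log scale (y axis) by class of barcode, for the Tie2-GFP library (left) and the NG2-DsRed library (right), with 95% Poisson intervals as bars, and open triangles at the level that 3 UMIs give where a class has 0. Dct, Tyr, Mlana, Gpnmb, Mitf and Sox10 lay far above their vascular levels in both libraries, Ednrb lay nearest to its own, and of the classes drawn Kit was found in the vascular ones only. Dct and Tyr helped to choose the pigment-marked barcodes.

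Of the structural and membrane genes, Mlana (ENSMUSG00000024806, chr19:29697824-29708634) and Gpnmb (ENSMUSG00000029816, chr6:49036546-49070929) were detected in most pigment-marked barcodes and Pmel was not. Mlana stood at 1069 CPM (1014 to 1127) in 81 of 87 pigment-marked barcodes of the Tie2-GFP library and at 898 CPM (783 to 1025) in all 23 of the NG2-DsRed library. Gpnmb stood at 2007 CPM (1931 to 2085) in 83 of 87 and at 1960 CPM (1788 to 2143) in all 23. Both genes were near their floor in vascular barcodes. In Tie2-GFP ECs Mlana had 9 UMIs in 9 barcodes (2.62 CPM) and Gpnmb 13 UMIs in 12 barcodes (3.79 CPM), which makes the pigment-marked level 408-fold (214 to 894) and 530-fold (309 to 997) higher. With NG2-DsRed, ECs had 4 UMIs of Mlana and 8 of Gpnmb, and mural barcodes had 3 and 5. The 3 Mlana UMIs of mural barcodes lay in 1 barcode. Pmel (ENSMUSG00000025359, chr10:128704195-128720238) had 1 UMI in the pigment-marked barcodes of each library and 4 UMIs, each in a separate barcode, in the 379 ECs of the Tie2-GFP library. With so few UMIs no direction can be read. Cdk2 and Dgka overlap Pmel on the other strand, 4930435M08Rik overlaps Dct and Gm15531 overlaps Mitf, and whether the counting used strand is not given in the sources used here.

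Both transcription factors were present in most pigment-marked barcodes. Mitf (ENSMUSG00000035158, chr6:97807052-98021349) stood at 708 CPM (663 to 755) in 81 of 87 barcodes of the Tie2-GFP library and at 580 CPM (488 to 683) in 21 of 23 of the NG2-DsRed library. Sox10 (ENSMUSG00000033006, chr15:79154908-79165240) stood at 287 CPM (259 to 317) in 73 of 87 and at 469 CPM (388 to 564) in 20 of 23. The Sox10 intervals of the libraries did not overlap, a difference that cannot be told apart from the preparation or the software version. In Tie2-GFP ECs Mitf had 13 UMIs in 11 barcodes (3.79 CPM, 2.02 to 6.47) and Sox10 had 4 UMIs in 4 barcodes (1.16 CPM, 0.317 to 2.98). The pigment-marked level was 187 times (109 to 352) that of ECs for Mitf and 246 times (95.4 to 909) for Sox10. Mural barcodes of the NG2-DsRed library held 7 UMIs of Mitf in 4 barcodes, or 21.1 CPM (8.47 to 43.4), and 2 UMIs of Sox10. The Mitf level there was 27.5-fold (13.0 to 69.7) under that of pigment-marked barcodes. Mitf is also known to act outside pigment cells, and on 7 UMIs its mural level is only loosely bounded.

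The receptors departed from the rest. Kit (ENSMUSG00000005672, chr5:75574916-75656722), the receptor for stem cell factor, had 0 UMIs in all 87 and all 23 pigment-marked barcodes, which allows up to 2.28 and 12.2 CPM, and of the 3 classes it was found in the vascular ones only. A further 2 UMIs lay in 1 Tie2-GFP barcode that met no rule. ECs of the Tie2-GFP library held 34 UMIs of it in 20 barcodes (5.28%, 3.25 to 8.03), a level of 9.90 CPM (6.86 to 13.8). That is 4.34 times the level that 3 UMIs over the pigment-marked class would give, and the lower 95% limit of the ratio to that class was 3.34. The UMIs were unevenly shared, since 2 barcodes held 13 of them and 16 barcodes held 1 each. Without the barcode that held the most (8 UMIs) the level was 7.60 CPM. In NG2-DsRed 6 UMIs lay in 4 of 97 mural barcodes, or 18.1 CPM (6.63 to 39.3), and 2 in ECs. There the floor of pigment-marked barcodes, 12.2 CPM, lies inside the mural interval, so no difference was detectable at this depth.

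Ednrb (ENSMUSG00000022122, chr14:103814625-103844402), the endothelin B receptor gene, was present in all 3 classes. It stood at 250 CPM (223 to 278) in 69 of 87 pigment-marked barcodes of the Tie2-GFP library and at 392 CPM (317 to 479) in all 23 of the NG2-DsRed library. ECs of the Tie2-GFP library held 141 UMIs of it in 79 barcodes (20.8%, 16.9 to 25.3), a level of 41.1 CPM (34.6 to 48.4), with up to 9 UMIs in 1 barcode and 3 or more in 13. The pigment-marked level was 6.08-fold (4.98 to 7.46) higher. For Mitf, Sox10, Mlana and Gpnmb, which the rule did not use, it was 187, 246, 408 and 530 times that in ECs. Among the 347 ECs with at most 1 mural gene Ednrb stood at 38.0 CPM (31.3 to 45.9), in 68 of them. Among the 26 with 3 or 4 mural genes it stood at 62.1 CPM (41.6 to 89.2). Its EC level in this library stayed between 37.5 and 43.4 CPM under 14 alternative settings.

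By CPM of summed UMIs, mural barcodes had more Ednrb than ECs within the NG2-DsRed library, although a smaller share of mural barcodes had any. Mural barcodes held 42 UMIs in 15 of 97 barcodes, or 126 CPM (91.1 to 171), and ECs held 26 UMIs in 13 of 58 barcodes, or 45.5 CPM (29.8 to 66.7). The ratio of EC to mural level was 0.360 (0.212 to 0.602), and on the log2 scale it lay between -1.86 and -1.23 under 13 alternatives. Mural UMIs were again uneven, as 3 barcodes held 23 of the 42 and 9 barcodes held 1 each. Without the mural barcode that held 12 of them the level was 92.5 CPM. The level without all 3 was not computed, so how far the order of the classes rests on these 3 of 97 barcodes is not known. In ECs of this library 22 of the 26 UMIs lay in the 32 barcodes that also had 3 or 4 mural genes. The 16 with at most 1 mural gene had 0, which allows up to 26.2 CPM (32.2 CPM by the exact upper bound). The part of mural RNA in the EC value of this library was not tested.

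The classes were also compared over all genes by a 4-fold difference in CPM, for genes with at least 20 UMIs over both classes. In the Tie2-GFP library 7 of the 8 members that passed this minimum were at least 4-fold higher in pigment-marked barcodes than in ECs (Dct, Tyr, Mlana, Gpnmb, Mitf, Sox10 and Ednrb), 5 of 6 without Dct and Tyr, where 8.46% of all 10516 genes tested were. Kit was lower, as were 16.3% of all genes, and Tyrp1 and Pmel were not tested. Among NG2-DsRed barcodes 7 of 7 were higher than in ECs (5 of 5 without Dct and Tyr, background 6.56%) and 6 of 7 higher than in mural barcodes (4 of 5 without them, background 6.95%), the exception being Ednrb at 3.10-fold (2.14 to 4.57). Without its top mural barcode Ednrb passed too, which makes 7. Between ECs and mural barcodes 0 of the 2 members with enough UMIs, Dct and Ednrb, differed 4-fold, where 6.44% of genes were higher in ECs and 5.13% in mural barcodes. Members passed the minimum almost entirely through the pigment-marked class, so these counts do not describe the members as a whole.

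To set genes side by side, the vascular level of each was given as a percent of its pigment-marked level. The yardstick was the sum of Dct, Tyrp1, Pmel and Mlana, genes of melanosome proteins, without the gene under study. In practice this sum is Dct, which made up 38656 of its 40062 UMIs in the pigment-marked barcodes of the Tie2-GFP library, and Dct helped to choose those barcodes. The pooled EC level was 0.0697% (0.0546 to 0.0877) of the pigment-marked level there. It was 0.351% (0.260 to 0.465) for ECs and 0.394% (0.269 to 0.557) for mural barcodes of the NG2-DsRed library. The mural value rests on the 2 barcodes that held 25 of the 29 Dct UMIs, so no order of classes or libraries is read from it. Levels in empty droplets were not analysed here.

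Tyr had at most 1 UMI in a vascular class, and its interval included the pooled ratio in each. Dct itself was set against the rest of the pool, which is mostly Mlana. In Tie2-GFP ECs Dct stood at 0.0594% (0.0453 to 0.0765), below the 0.354% (0.188 to 0.607) of that rest on 13 EC UMIs. In NG2-DsRed ECs and mural barcodes the intervals of Dct and of the rest overlapped. Mlana, Gpnmb, Sox10 and Mitf lay between 0.189% and 0.535% of the pigment-marked level in Tie2-GFP ECs, or 2.71 to 7.67 times the pooled ratio, on 4 to 13 UMIs each. These multiples are in effect taken against Dct. The intervals of Gpnmb, Sox10 and Mitf overlapped that of Mlana (0.112% to 0.467%). Kcnj10 and Met, genes of intermediate cells that are not members, lay at 2.72 and 4.49 times it, the prostaglandin synthase gene Ptgds of the same cells at 5.92 times on 364 UMIs, and the pigment transporter gene Slc45a2 at 1.12 times, so genes of these cells did not share 1 ratio. In mural barcodes Ptgds lay at 40.2 times on 1624 UMIs, of which 1433 were in 1 barcode. For NG2-DsRed the intervals of Mlana, Gpnmb and Sox10 included the pooled ratio in ECs and in mural barcodes. Mitf lay above it in all 3 vascular sets, at 7.67, 4.30 and 9.22 times the pooled ratio, on 13, 5 and 7 UMIs. In NG2-DsRed ECs its lower bound (0.483%) was close to the upper bound of the pool (0.465%). All 5 Mitf UMIs there lay in the 32 ECs with 3 or 4 mural genes, and the part of mural RNA was not tested. Ednrb stood at 16.4% (13.4 to 20.1) of its pigment-marked level in Tie2-GFP ECs, 11.6% (7.23 to 18.1) in NG2-DsRed ECs and 32.2% (21.9 to 46.8) in mural barcodes, or 236, 33.1 and 81.8 times the pooled ratio. Kit had 0 UMIs in pigment-marked barcodes, so its vascular UMIs have no counterpart there. In all, 7 members had an interval above the pooled ratio in Tie2-GFP ECs (Mlana, Gpnmb, Mitf, Sox10, Ednrb, Kit and, on 4 and 1 UMIs, Pmel), and 3 in mural barcodes (Mitf, Kit and Ednrb). The counts were again 7 and 3 when Kcnj10 and Kcnj13, and not Dct or Tyr, chose the pigment-marked barcodes (38 and 4 of them). The share of all genes above the pooled ratio was not computed. In Tie2-GFP ECs Kcnj10, Met, Ptgds, Myo5a and Slc24a5, which are not members, also lay above it, and Slc45a2 and Pax3 did not. The counts therefore do not set the members apart from other genes.

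**Figure D2:**
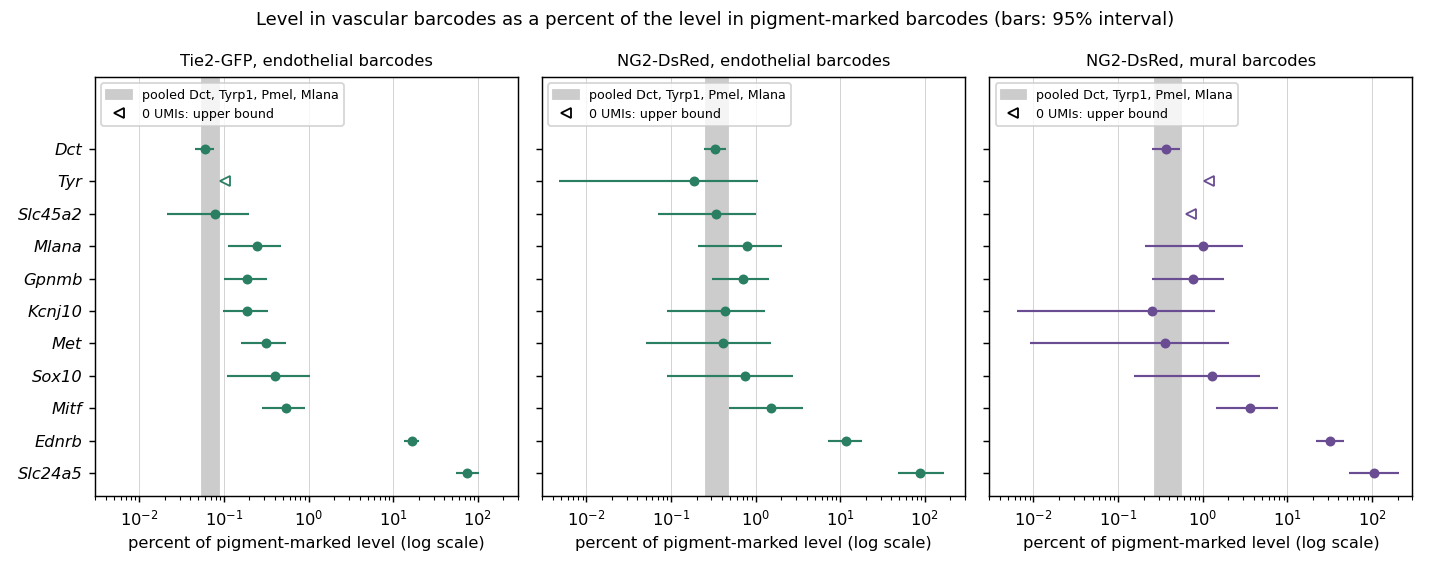
Level in vascular barcodes as a percent of the level in pigment-marked barcodes of the same library (x axis, log scale) for 7 members and 4 other genes (y axis), with 95% intervals as bars, open triangles at the upper bound where a gene had 0 vascular UMIs, and the pooled ratio as a grey band. Dct makes up most of the band, so its overlap with the band was fixed in advance. Tyr and Slc45a2 overlapped or stayed below the band, whereas Ednrb and Slc24a5 lay more than 10 times to its right in each panel.

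How the UMIs were spread over barcodes was described as well. In Tie2-GFP ECs 53 barcodes had Dct and 79 had Ednrb, and 9 had both. Dct was found in 11.4% of the ECs with Ednrb and in 14.7% of those without, although the former were deeper (median 9517 against 7159 UMIs). Of the 20 ECs with Kit, 8 had Ednrb and 2 had Dct. When ECs were divided at the median depth, the deeper part had 2.58 times the UMIs of the shallower part, 2.01 times the Dct UMIs per barcode, 3.29 times those of Ednrb, 2.79 times those of Kit and 2.49 times those of the endothelial gene Tek. In the 15 mural barcodes with Ednrb Dct was found in 0, and it was found in 7.32% of the others. The ECs of the NG2-DsRed library ran the other way from both, with Dct in 30.8% of those with Ednrb and 24.4% of those without, and with 3.09 times the Dct and 2.71 times the Ednrb UMIs in the deeper part. No common pattern is read from these shares.

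Barcodes that met no class rule gave a further view of the same library. The 163 of the Tie2-GFP library were a mixed set. By a grouping chosen after seeing the data, 35 had UMIs of at least 2 of the marginal cell genes Kcnq1, Kcne1 and Esrrb. These 35 held 381970 of the 671649 UMIs, and Dct at 374 CPM. The other 128 had a median of 1277.5 UMIs, a median mitochondrial share of 83.8%, and Dct at 1498 CPM. Together the 163 had a median of 1533 UMIs and a median mitochondrial share of 75.6%. They held Dct at 859 CPM (790 to 932), and Ednrb at 1.49 CPM (1 UMI). Of their 577 Dct UMIs 194 lay in 1 barcode, without which the level was 576 CPM. The rules keep ECs out of this set and leave in it barcodes with Dct that lack Tyr or Kcnj10. ECs held less Dct (17.5 CPM) and more Ednrb (41.1 CPM) than these barcodes, so the genes ran in opposite directions between the 2 sets. The part of the rules in this was not tested. The 21 NG2-DsRed barcodes without a class held both, Dct at 2271 CPM and Ednrb at 123 CPM (8 UMIs).

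**Figure D3:**
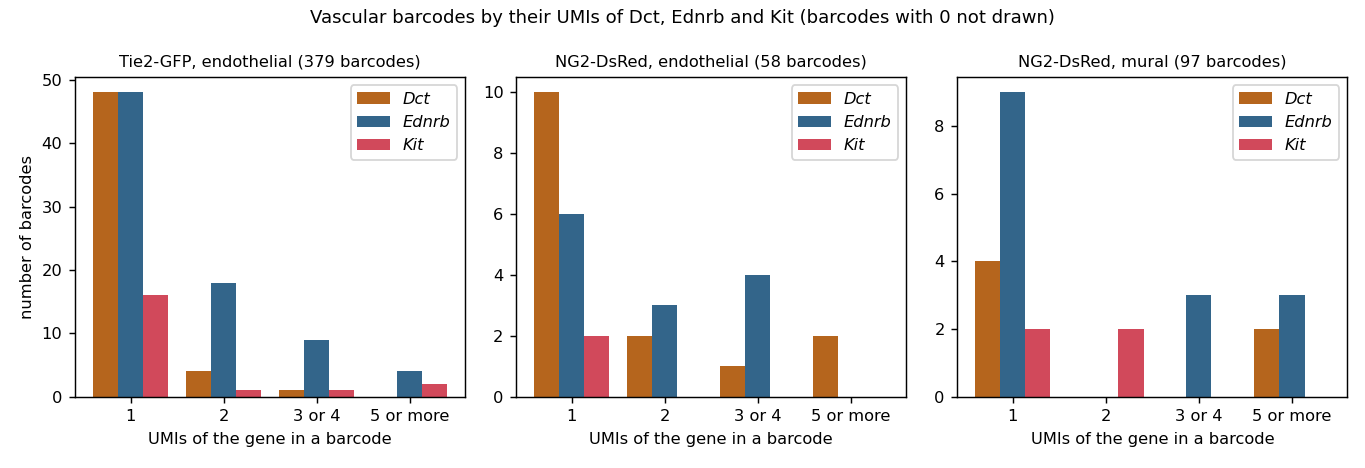
Number of vascular barcodes (y axis) with 1, 2, 3 or 4, and 5 or more UMIs (x axis) of Dct, Ednrb and Kit, for ECs of the Tie2-GFP library, ECs of the NG2-DsRed library and mural barcodes of the NG2-DsRed library. In Tie2-GFP ECs Dct and Ednrb each had 48 barcodes with 1 UMI, but 2 UMIs of Dct were found in 4 barcodes and 2 of Ednrb in 18.

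Shares were also compared at equal depth. After each barcode was thinned to 2000 UMIs, the expected share with an Ednrb UMI was 36.2% of pigment-marked and 6.52% of EC barcodes in the Tie2-GFP library, against 20.8% of ECs unthinned, and 17 ECs and 2 pigment-marked barcodes were too shallow to enter. For Dct, which helped to choose the pigment-marked barcodes, the thinned shares were 99.1% and 3.97%. In NG2-DsRed barcodes the thinned share with Ednrb was 51.6% of pigment-marked, 10.9% of mural and 7.07% of EC barcodes, with 19 of the 97 mural barcodes left out for depth. Unthinned, mural barcodes (15.5%) showed a lower share than ECs (22.4%), and at 4000 UMIs the shares were 12.0% and 14.0%. The order of ECs and mural barcodes by share thus changed with the depth, and none is read from it.

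Most pigment-marked barcodes held several members, at levels that varied widely. Of the 87 in the Tie2-GFP library, 61 (70.1%) had UMIs of all 5 of Mlana, Gpnmb, Mitf, Sox10 and Ednrb, which the rule did not use, 13 had 4, 7 had 3, 3 had 2 and 3 had 1. Of the 23 in the NG2-DsRed library, 20 had all 5, and 0 had fewer than 3. Across the barcodes of 1 library, which share preparation and vary in depth, Dct and Gpnmb in CPM had a Spearman correlation of 0.69 (n = 87) in the Tie2-GFP library and 0.39 (n = 23) in the NG2-DsRed library, while Tyr and Mlana had 0.0048 and 0.076. Among pairs of Dct, Tyr, Mlana, Gpnmb, Mitf, Sox10 and Ednrb, these were the highest and the nearest to 0 in the Tie2-GFP library. The lowest in the NG2-DsRed library was Tyr and Ednrb at -0.48, against 0.21 in the Tie2-GFP library. Against the share of mitochondrial UMIs, rho in the Tie2-GFP library was -0.28 for Sox10, -0.28 for Ednrb, -0.14 for Dct and -0.059 for Tyr. In the NG2-DsRed library it was -0.39, 0.12, 0.14 and 0.42. That share itself had rho of -0.68 and -0.69 with the UMIs per barcode.

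The wider list of pigment genes behaved in part like the members. Of 13 melanosome and transport genes, 6 of the 8 with enough UMIs were at least 4-fold higher in pigment-marked barcodes than in Tie2-GFP ECs, and 0 were lower. Of all genes tested there, 8.46% were higher and 16.3% lower. Some of the 8, such as Rab38, passed the minimum only through the pigment-marked class, so these counts do not describe the list as a whole. Slc45a2, a melanosomal transporter, stood at 1493 CPM in pigment-marked barcodes and 1.16 CPM in ECs. Rab38, a small GTPase that traffics enzymes to melanosomes, had 80 UMIs (60.9 CPM) in pigment-marked barcodes and 0 in ECs, and Myo5a, the myosin that carries melanosomes along actin, stood at 228 and 4.08 CPM. In the NG2-DsRed library 3 of 5 tested were higher than in ECs (background 6.56%), as 3 of 5 were than in mural barcodes (background 6.95%). Slc24a5, a cation exchanger best known from pigment cells and named after its values were seen, had overlapping intervals in all classes of a library. It stood at 49.5 CPM (38.2 to 63.0) in pigment-marked barcodes and 37.3 CPM (31.1 to 44.3) in ECs of the Tie2-GFP library, and at 69.4, 61.3 and 72.2 CPM in pigment-marked, EC and mural barcodes of the NG2-DsRed library.

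Of 11 transcription factors of the lineage, 3 of the 8 tested were 4-fold higher and 2 lower in pigment-marked barcodes than in Tie2-GFP ECs, where 8.46% and 16.3% of all genes were. Pax3, which acts with Sox10 on Mitf, stood at 215 CPM in pigment-marked barcodes and had 0 UMIs in ECs, and in the NG2-DsRed library it stood at 204 CPM with 1 UMI in mural barcodes. Sox5 stood at 58.6 and 3.20 CPM and Sox9 at 28.2 and 1.75 CPM in the pigment-marked and EC barcodes of the Tie2-GFP library. In the NG2-DsRed library Sox5 was instead higher in mural barcodes, at 102 CPM against 32.7 CPM in pigment-marked ones, 3.13-fold (1.42 to 7.83). Lef1, a Wnt effector, ran the other way, with 516 CPM in ECs and 0 UMIs in pigment-marked barcodes, and so did Snai2, with 46.9 and 0.761 CPM. Against NG2-DsRed ECs 2 of 5 tested were higher (Pax3, Sox9) and 1 lower (Lef1), where 6.56% and 14.6% of all genes were. Against mural barcodes 2 of 4 were higher and 1 lower (Zeb2), where 6.95% and 14% of all genes were.

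Ligands and receptors were considered next. Of the 10 listed, 5 had enough UMIs in the Tie2-GFP library, of which 4 were 4-fold lower in pigment-marked barcodes than in ECs and 1, Met, was higher, where 16.3% and 8.46% of all genes were, and the other 5 were not tested. The counts were the same against NG2-DsRed ECs, where 14.6% of all genes were lower and 6.56% higher. Against mural barcodes 3 of 4 were lower and Met higher, where 14% and 6.95% of all genes were. Kitl, which encodes the Kit ligand, stood at 425 CPM (403 to 447) in 312 of 379 ECs and at 4.57 CPM in pigment-marked barcodes of the Tie2-GFP library. With NG2-DsRed it stood at 552 CPM in ECs, 265 in mural barcodes and 24.5 in pigment-marked barcodes, and the EC level was 2.08 times (1.64 to 2.67) the mural level. Ligand and receptor of this pair were thus both found in vascular barcodes, and Kit was not detected in pigment-marked ones.

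The endothelin genes divided by class. Edn1, the endothelin 1 gene, stood at 480 CPM (457 to 504) in 177 of the 379 Tie2-GFP ECs and at 272 CPM in NG2-DsRed ECs, with 0 UMIs in mural and in pigment-marked barcodes of both libraries. Edn3, the isoform that melanoblasts are known to depend on, had 1 UMI in Tie2-GFP ECs and 0 in every other class, and Edn2 had 0 in all. Ece1, the enzyme that activates endothelins, stood at 370 CPM in Tie2-GFP ECs and 5.33 CPM in pigment-marked barcodes. Ednra, the endothelin A receptor gene, marked mural barcodes at 527 CPM (451 to 611), with 0 UMIs in pigment-marked barcodes. Its 27 UMIs in Tie2-GFP ECs all lay in the 26 barcodes with 3 or 4 mural genes. Of the 141 Ednrb UMIs, 110 lay in the 347 of 379 ECs with at most 1 mural gene. Ednrb stood at 38.0 CPM (31.3 to 45.9) there and at 62.1 CPM (41.6 to 89.2) in those 26. Met, the receptor for hepatocyte growth factor, stood at 1117 and 841 CPM in the pigment-marked barcodes of the Tie2-GFP and NG2-DsRed libraries, and its ligand gene Hgf had 3 and 0 UMIs there. Mc1r and Erbb3 had at most 5 UMIs in any of the 3 classes, and Asip is not listed in these matrices.

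**Figure D4:**
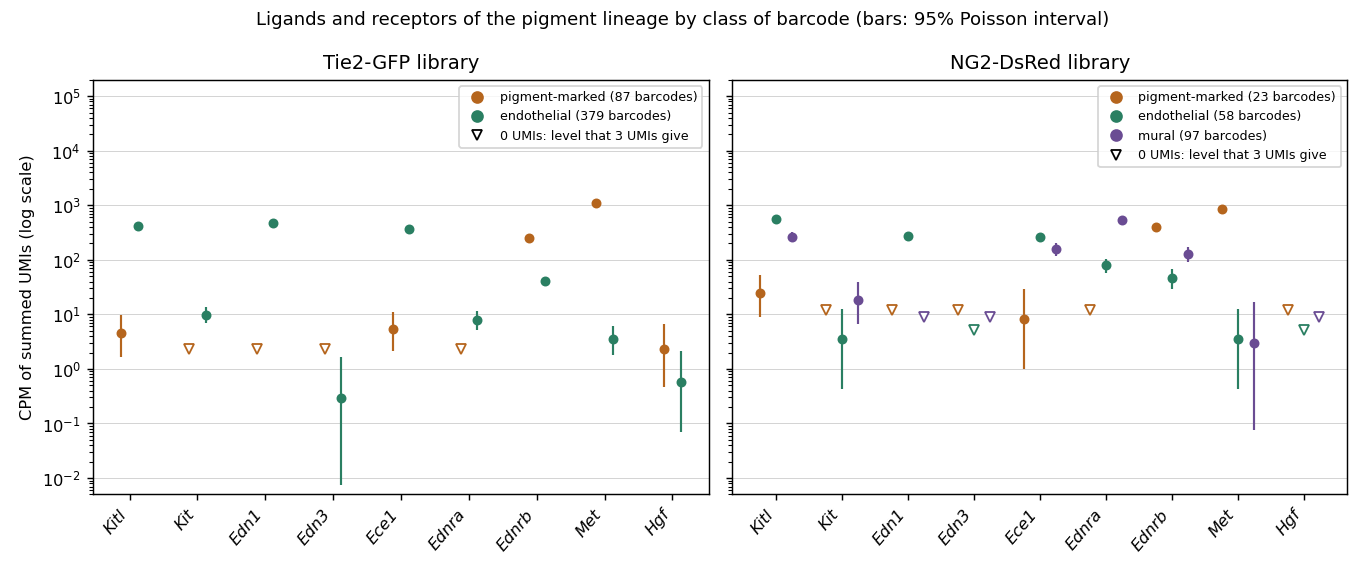
Level of 9 ligand, enzyme and receptor genes (x axis) in CPM of summed UMIs on a log scale (y axis) by class of barcode in the Tie2-GFP library (left) and the NG2-DsRed library (right), with 95% Poisson intervals as bars, and open triangles at the level that 3 UMIs give where a class has 0. Kitl, Edn1 and Ece1 were highest in ECs, Ednra in mural barcodes, and Met and Ednrb in pigment-marked barcodes.

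Genes outside these lists whose pattern was most like that of the members were ranked by the lower of 2 ratios, pigment-marked to EC level in the Tie2-GFP library and pigment-marked to mural level in the NG2-DsRed library, among 326 genes with at least 100 pigment-marked UMIs in each library. The 5 highest were Gsta1, Cox8b, Rlbp1, Hpse and Syngr1, with lower ratios of 398, 321, 289, 246 and 143 after adding 0.5 UMIs. The same measure gave 623 for Tyr, 265 for Dct, 119 for Gpnmb, 85.5 for Mlana, 62.7 for Sox10, 25.8 for Mitf and 3.08 for Ednrb. Gsta1, Rlbp1 and Tyr had 0 mural UMIs, so their values, and the ranks of Gsta1 and Rlbp1, depend on the 0.5 UMIs added. Against the level of 3 UMIs the Tyr ratio to mural barcodes was 104. Tyr and Dct also helped to choose the pigment-marked barcodes.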

How the data were processed

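Sorted single cells of the SV were measured on the 10x Chromium 3′ platform, with 1 library for each of the lines. The values deposited by the authors are raw counts of UMIs in each gene and barcode. Per the file headers the matrices were written by software versions 7.0.0 and 3.0.0, and the submitters' processing notes name bcl2fastq 2.20.0.422 and mm10. Whether intronic reads were counted is not given in the sources used here.

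The members and gene lists were chosen with earlier results of these data known. All 10 members are named, by role. Of the wider lists, counts are given, with the ligands and receptors and the 3 genes of largest ratio in each other list. Counts were summed over the barcodes of a class in Python 3.11.15 (numpy 2.4.6, scipy 1.17.1, pandas 2.3.3) and divided by all UMIs of the class. Ratios have exact conditional binomial 95% intervals. A count of 0 is given with the level of 3 UMIs over the class. A fold against 0 uses that level, except in the ranking of like genes, where 0.5 UMIs were added. Thinned shares are hypergeometric expectations. No barcode was removed for doublets, and Scrublet (scanpy 1.11.5), which marked 0 Tie2-GFP and 6 NG2-DsRed barcodes, was used in an alternative. Gene coordinates are from GENCODE M21 and promoter windows from RefSeq. The Tie2-GFP mural class, with 4 barcodes and 12355 UMIs, entered no comparison, and all 10 members had 0 UMIs there, which allows up to 243 CPM. Alternatives changed the mitochondrial limit, the filters, the class rules, the denominator, the weights of barcodes, single barcodes, the fold, the UMI minimum and the depth of thinning. The steps were tested on simulated counts.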

Additional observations from a re-analysis of the deposited data

Results flagged for a closer look

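The levels of Sox10 and Mitf stood out in barcodes that the comparisons do not use. Among the Tie2-GFP barcodes that met no class rule, 35 had UMIs of at least 2 of Kcnq1, Kcne1 and Esrrb, genes of strial marginal cells, a grouping chosen after seeing the data, and a median of 20.2% of their UMIs were mitochondrial. Sox10 stood at 157 CPM (120 to 202) in 20 of these 35 barcodes, above its 1.16 CPM in ECs. That is 54.8% (41.0 to 72.1) of its pigment-marked level, where the pooled melanosome genes stood at 1.25% (1.05 to 1.47). Mitf stood at 39.3 CPM (22.0 to 64.8) on 15 UMIs in 9 barcodes, or 5.55% (3.09 to 9.20) of its pigment-marked level. In the same barcodes Dct stood at 374 CPM, Tyr and Ednrb had 0 UMIs, and a count of 0 allows up to 7.85 CPM. The NG2-DsRed library had 0 such barcodes, and no part of these values was tested.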

How the results depend on the processing

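The count of members at least 4-fold higher in pigment-marked barcodes stayed within 1.5 times its value under every alternative run, and so did the 2 counts of members above the pooled ratio. Of the 2 members with enough UMIs, Dct and Ednrb, 1 (Ednrb) had an interval for the ratio of EC to mural level that excluded 1. The share of all genes with such an interval was not computed, so the count does not set the members apart. The count became 2, with Dct added, under the filters of the study, under the stricter vascular rule and without the barcodes marked by Scrublet. Dct was higher in mural barcodes in the first case (log2 ratio -1.05) and higher in ECs in the other cases (2.61 and 0.90), and without the barcodes of 5 or more Dct UMIs it was 1.33, so no direction is read for Dct. Of the values of single genes under an alternative, 752 stayed within the 95% interval of the reported value and 123 did not. With equal weights of barcodes no interval exists, so the comparisons with the pooled ratio and between ECs and mural barcodes were not run there. No paired analysis was possible because there is 1 library for each line and the labels give no replicate numbers. The lowest vascular levels rest on 1 to 13 UMIs, and at this depth they cannot be ordered.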

Other observations

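Cspg4, the gene whose promoter drives DsRed, was present in pigment-marked barcodes, at 135 CPM (92.7 to 189) in 18 of 23 of the NG2-DsRed library and 54.0 CPM (42.2 to 68.2) in 33 of 87 of the Tie2-GFP library, while the further mural genes Kcnj8, Abcc9, Des and Ndufa4l2 had 0 UMIs there and Higd1b had 1. Mural barcodes of the NG2-DsRed library held 656 CPM. Sox9 differed between the pigment-marked barcodes of the libraries, at 167 CPM (120 to 227) in NG2-DsRed and 28.2 CPM (19.8 to 38.8) in Tie2-GFP, as unevenly spread UMIs, with 15 of the 37 Tie2-GFP UMIs in 1 barcode. The Sox9 difference cannot be told apart from the preparation or the software version. Both Cspg4 and Sox9 were chosen after their values were seen.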
